A study of Mus musculus with 5 samples.

Results

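Regulatory T cells (Treg) carrying a protease-dead Malt1 allele were compared with wild-type Treg at 6 weeks, by RNA sequencing of CD4+YFP+ cells sorted from C57BL/6 mice. The knock-in group (KI) has the genotype Foxp3Cre-YFP /malt1fl/C472A, in which 1 Malt1 allele is floxed and the other encodes a C472A protein without protease activity, and it is represented by 2 libraries at 6 weeks. The wild-type group carries the Foxp3-Cre-YFP allele without a Malt1 change and has 1 library at 6 weeks (WT 6 weeks) and 1 at 21 days (WT 21 days). The remaining library, from Treg of the genotype Foxp3Cre-YFP /malt1fl/fl at 21 days, labelled as deleted for Malt1 in Treg (the library labelled KO), is used only for values placed beside the others and for counts of genes highest in WT 6 weeks among all 5 libraries. All of these groups share the Cre and YFP driven from Foxp3, so deletion of the floxed allele depends on Foxp3 expression. Whether cells other than Treg also carried the C472A allele is not said in the labels. The labels give neither the number nor the sex nor the source tissue of the animals behind each library, and do not say that the KI libraries came from separate animals. The spread between them may therefore be technical, and the wild-type library at 6 weeks has no replicate. The entries described are those with at least 1 FPKM (fragments per kilobase of transcript, relative to the fragments mapped) in any of the 3 libraries at 6 weeks and with both KI libraries on the same side of WT 6 weeks. Of 38130 deposited entries, 12158 passed the level threshold and 9150 of these lay on the same side in both KI libraries. Just under the threshold were Smo and Dfna5, whose highest FPKM was 0.999, and just over it were Paqr9 and Sepn1, at 1.0004 and 1.0012.

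MALT1 is the enzyme subunit of the CBM complex, which contains BCL10 and forms in lymphocytes after antigen receptor stimulation. As a scaffold it recruits TRAF6 and activates the IkB kinases, which free NF-kB to enter the nucleus. As a protease it cuts inhibitors of NF-kB and RNA-degrading proteins, among them A20, CYLD, RelB, Regnase-1 and the Roquins, and the C472A change removes this activity while the scaffold stays in place. Treg are CD4 T cells that express Foxp3, depend on interleukin 2 and restrain other immune cells through CTLA4, TGF-beta and related routes.

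Levels are given as scaled FPKM, the deposited FPKM divided by 1 factor per library (0.868 to 1.15), and differences are on the log2(scaled FPKM + 1) scale, which understates the change of low genes. WT 6 weeks was shallower than the KI libraries: the Cufflinks confidence bounds imply 2.99 M (mega) fragments in genes expressed throughout, against 7.21 and 7.89 M in the KI libraries and 8.37 M in WT 21 days. It also stood apart in content. Summed scaled FPKM over 11 markers of plasmacytoid dendritic cells was 163.7 in WT 6 weeks, 34.4 and 38.8 in the KI libraries and 51.6 in WT 21 days. For this reason WT 21 days, a library of another age, is given beside WT 6 weeks. Foxp3, which defines Treg, was at 39.5 in WT 6 weeks, 70.1 and 73.6 in KI, 70.7 in WT 21 days and 30.5 in the library labelled KO. Summed over the 17 genes of the Treg identity list, scaled FPKM was 1270.1 in WT 6 weeks, 2036 and 1936 in KI, 1780.1 in WT 21 days and 1326 in the library labelled KO.

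In both KI libraries Malt1 transcript was above both wild-type libraries. Malt1 (ENSMUSG00000032688) stood at 55.9 and 37.8 in the KI libraries (46.9 ± 12.8, SD, n = 2), 15.2 in WT 6 weeks and 27.0 in WT 21 days. It was at 17.6 in the library labelled KO, above WT 6 weeks and below WT 21 days. The difference of KI from WT 6 weeks was 1.53 (SE 0.339, limma with Benjamini-Hochberg adjustment, adjusted p = 0.364) and that from WT 21 days 0.75. These are levels of the whole gene, so the C472A, floxed and deleted alleles were not told apart, and the values check neither the KI nor the KO label.

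Across all entries, 4318 (35.5%) were higher and 4832 (39.7%) lower in both KI libraries than in WT 6 weeks, and 2917 lay on opposite sides. The shares among protein-coding genes were 35.4% and 39.9%. At least 2-fold in both, 352 (2.9%) were higher and 445 (3.66%) lower, while 14 were past 2-fold in opposite directions. With FPKM as deposited, without the scaling, the counts were 223 and 727, and the median difference of all entries was -0.27 in place of -0.02. Many were not protein-coding genes: 467 of the 797 were, and 147 were processed pseudogenes. Among 10418 protein-coding genes, 211 (2.03%) were higher and 256 (2.46%) lower by this measure. The level threshold was met only through the high side by 116 of the 352 and 267 of the 445, which had to differ. No entry passed an adjusted p of 0.05 in limma, which had 1 residual degree of freedom and took the lone wild-type library to vary as the KI libraries do. At an unadjusted p under 0.05 there were 660 higher (5.43%) and 814 lower (6.7%) entries, and 4.46% and 5.35% of protein-coding genes. What follows is therefore ordered by size, by both KI libraries and by both wild-type libraries.

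**Figure D1:**
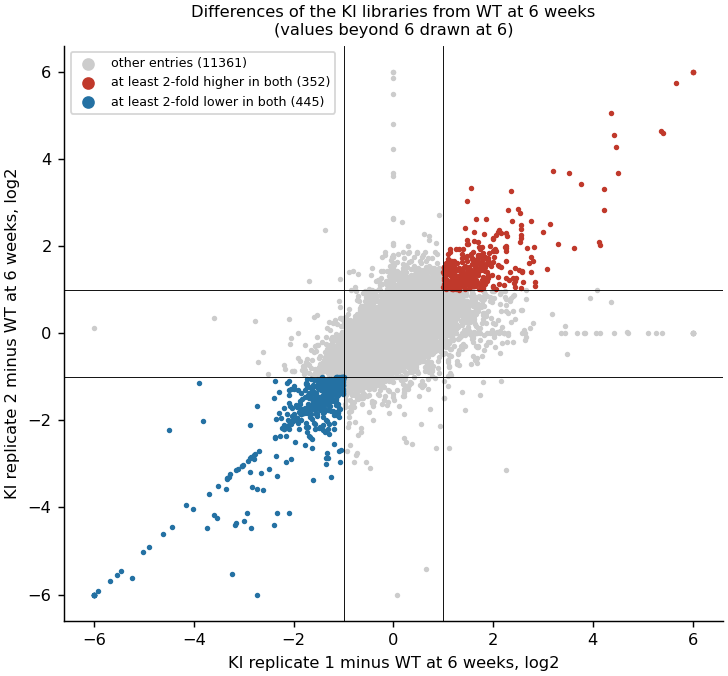
Log2 difference from WT 6 weeks in KI replicate 1 (horizontal) and KI replicate 2 (vertical) for the 12158 entries, on the log2(scaled FPKM + 1) scale, with lines at 2-fold. Red points (352) were at least 2-fold higher in both and blue points (445) at least 2-fold lower in both, and points along an axis differed in 1 KI library only.

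The libraries of 1 group differed from each other too. The median absolute difference over all entries was 0.30 between the KI libraries, 0.38 between their mean and WT 6 weeks, 0.34 between the wild-type libraries and 0.18 between the KI mean and WT 21 days. Between the KI libraries 838 entries (6.89%) differed by at least 2-fold, and 543 protein-coding genes (5.21%). By these medians the KI mean lay nearer to WT 21 days than to the wild-type library of its own age. Averaging the KI libraries lowers their spread, so distances of the KI mean are not comparable with those between single libraries.

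Past 2-fold in both KI libraries against both wild-type libraries were 35 entries on the higher side (0.288%) and 41 on the lower (0.337%). Protein-coding were 26 of the former (0.25% of such genes) and 21 of the latter (0.202%). Of those reaching 5 FPKM, 18 were higher and 14 lower. Cdk6, a cyclin-dependent kinase of G1, had the largest difference from WT 6 weeks among the higher genes, followed by Hipk2, a nuclear kinase.

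Cdk6 was at 25.6 and 24.1 in the KI libraries (24.9 ± 1.10, SD, n = 2), 3.52 in WT 6 weeks and 7.85 in WT 21 days. The difference from WT 6 weeks was 2.52 (SE 0.241, limma adjusted p = 0.330) and from WT 21 days 1.55. Hipk2 stood at 28.2 and 32.7 in KI (30.5 ± 3.18, SD, n = 2), 4.63 in WT 6 weeks and 11.7 in WT 21 days, a difference of 2.48 from WT 6 weeks. For both genes the KI libraries lay close together, while their place above each wild-type library was required by the selection. Il1r2, the decoy receptor that binds interleukin 1 without signalling, was at 50.5 and 45.1 in KI (47.8 ± 3.82, SD, n = 2), 11.4 in WT 6 weeks and 13.6 in WT 21 days. Its difference from WT 6 weeks was 1.97 (SE 0.223, limma adjusted p = 0.332) and from WT 21 days 1.74. Here the wild-type libraries were near each other, and the selection required the KI libraries to lie above them. Serpina3g, a serine protease inhibitor of lymphocytes, was at 87.7 and 93.3 in KI, 26.2 in WT 6 weeks and 41.3 in WT 21 days. Myo6, an unconventional myosin, was at 48.2 and 45.3 in KI, 14.8 in WT 6 weeks and 19.2 in WT 21 days.

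Genes with a role in immune signalling stood among the rest. Ifitm2, an interferon-induced membrane protein that restricts virus entry, was at 54.8 and 25.0 in KI, 7.52 in WT 6 weeks and 8.69 in WT 21 days. Ccl1, the chemokine bound by CCR8, was at 6.11 and 5.50 in KI, 2.1 in WT 6 weeks and 1.29 in WT 21 days. Its scaled confidence bounds overlapped between KI replicate 2 (3.68 to 7.33) and WT 6 weeks (0.316 to 3.89). With FPKM as deposited its difference from WT 6 weeks was 0.91. Lilrb4, an inhibitory receptor, was at 13.7 and 6.73 in KI, 1.93 in WT 6 weeks and 2.55 in WT 21 days. The KI libraries agreed on side but not on level for Ifitm2 and Lilrb4. Rin2, a Rab5 exchange factor, was at 6.06 and 5.01 in KI, 1.28 in WT 6 weeks and 1.05 in WT 21 days. Fam160a1, which reached 8.18 and 7.92 in KI, stood at 0.891 and 1.61 in the wild-type libraries at 6 weeks and 21 days. Tm4sf5, a tetraspan membrane protein, was at 6.54 and 7.87 in KI, 0.761 in WT 6 weeks and 1.92 in WT 21 days. Neb, which encodes the muscle protein nebulin, Hapln1, a matrix link protein, and Scin, an actin-severing protein, were also on this side but spread widely between the KI libraries. Neb was at 51.2 and 16 in KI and 5.15 and 6.60 in WT at 6 weeks and 21 days, Hapln1 at 1.89 and 7.54 against 0.0457 and 0.0661, and Scin at 7 and 2.12 against 0.175 and 0.472. Tiam1, a Rac exchange factor, and Pnkd were also among the 18 and were named after their values were seen. Tiam1 was at 97.3 and 86.0 in KI and 25.3 and 41.3 in the wild-type libraries, and Pnkd at 25.1 and 25.5 against 11.6 and 12.04.

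Receptors and costimulatory molecules were among the 14 genes on the lower side. Klrg1, an inhibitory lectin-like receptor that marks terminally differentiated Treg, had the largest difference. It was at 0.699 and 7.16 in the KI libraries, 37.3 in WT 6 weeks and 21.3 in WT 21 days, a difference of -3.36 from WT 6 weeks and -2.58 from WT 21 days. On the log2 scale the KI libraries lay about as far from each other as KI replicate 2 lay from WT 6 weeks. Cd86, a ligand of CD28 and CTLA4, was at 2.67 and 2.46 in KI (2.56 ± 0.152, SD, n = 2), 9.63 in WT 6 weeks and 11.1 in WT 21 days, a difference of -1.58 (SE 0.293, limma adjusted p = 0.349). Dtx1, the ubiquitin ligase Deltex and a target of Notch, was at 20.6 and 22.6 in KI (21.6 ± 1.40, SD, n = 2), 65.7 in WT 6 weeks and 51.0 in WT 21 days, a difference of -1.56 (SE 0.218, limma adjusted p = 0.332). For Cd86 and Dtx1 the KI libraries lay close together, while their place below each wild-type library was required by the selection. Cd40lg, the CD40 ligand, was at 5.04 and 5.09 in KI, 16.6 in WT 6 weeks and 12.2 in WT 21 days. Tox2, a transcription factor of the TOX family, was at 1.78 and 1.46 in KI, 5.59 in WT 6 weeks and 11.5 in WT 21 days. Eif4ebp1, the translation repressor 4E-BP1, was at 1.89 and 2.01 in KI and 5.75 and 5.83 in the wild-type libraries. The selection required all of these genes to lie below both wild-type libraries.

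The chemokine receptors CCR6, CCR9 and CXCR6 were on the lower side together. Ccr9, the gut-homing receptor for CCL25, was at 0.596 and 1.10 in KI, 7.22 in WT 6 weeks and 8.17 in WT 21 days. Ccr6, the receptor for CCL20, was at 3.52 and 3.58 in KI, 8.64 in WT 6 weeks and 14.0 in WT 21 days. Cxcr6, the receptor for CXCL16, was at 2.16 and 1.30 in KI, 6.83 in WT 6 weeks and 7.32 in WT 21 days. The homing list was otherwise mixed: of 21 members that passed the threshold, 7 were higher and 8 lower in both KI libraries than in WT 6 weeks. Ccr9 is also a marker of plasmacytoid dendritic cells, and Cd79b, a B cell receptor subunit in the same group, was at 2.06 and 1.99 in KI, 11.6 in WT 6 weeks and 8.93 in WT 21 days. Of the 11 B cell genes given further on, 10 lay on the same side. The part of such cells in Ccr6, Cd86 and Cd79b was not tested. Capn3, Asb2, Rnase4 and Gm3636 complete the 14, with differences from WT 6 weeks and WT 21 days of -1.85 and -1.54 for Capn3 and of -1.61 and -1.47 for Asb2.

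**Figure D2:**
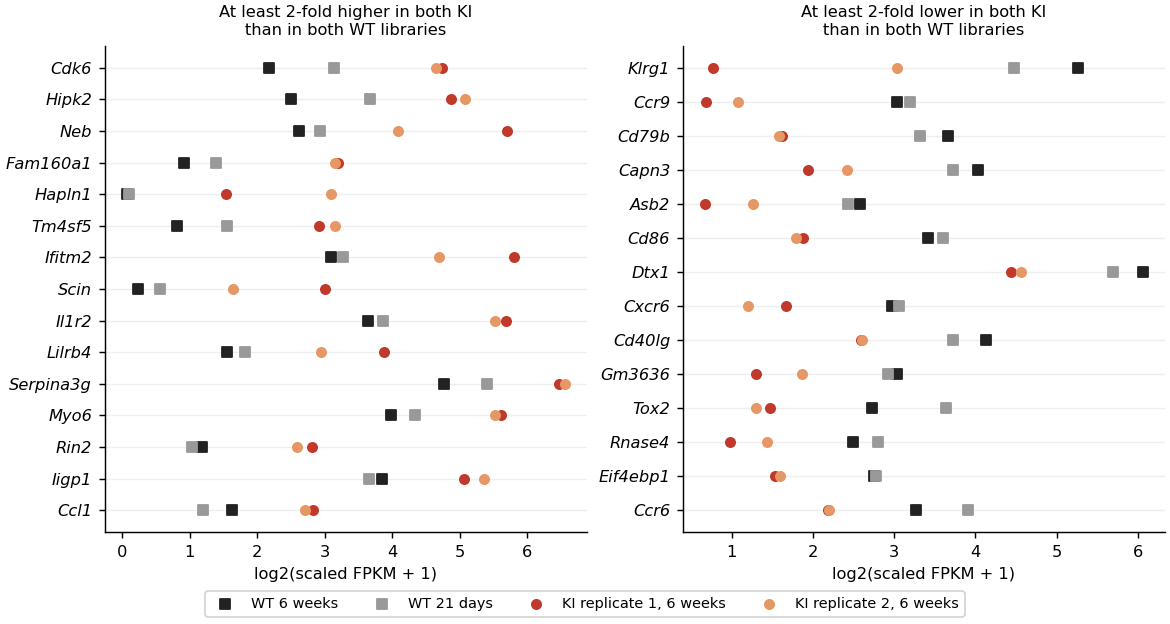
Levels, as log2(scaled FPKM + 1), of the named genes at least 2-fold higher (left, 15 genes) or lower (right, 14 genes) in both KI libraries than in both wild-type libraries. Each point is 1 library and each row 1 gene. Circles lie beyond both squares by construction, and the gap between the circles is widest for Klrg1 and is wide for Neb, Hapln1 and Scin.

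Just outside this selection on the higher side was Lrrc32, which encodes GARP, the Treg surface protein that holds latent TGF-beta. Lrrc32 was at 136 and 115 in KI, 35.6 in WT 6 weeks and 57.2 in WT 21 days, a difference of 1.78 from WT 6 weeks and 1.11 from WT 21 days. Of 15 genes of TGF-beta activation and signalling that passed the threshold, Lrrc32 included, 10 were higher and 3 lower in both KI libraries, and 5 were at least 2-fold higher. Of all entries 2.9% were at least 2-fold higher. The median difference of the list was 0.46 and 0.28 in the KI libraries, against -0.02 and -0.03 over all entries. Integrin subunits stood out in it. Itgae, the alpha chain CD103, was at 102 and 52.8 in KI, 24.9 in WT 6 weeks and 30.1 in WT 21 days. Itgb8, whose product activates TGF-beta bound to GARP, was at 6.31 and 10.9 in KI and 1.38 in WT 6 weeks, but at 6.76 in WT 21 days. Against WT 21 days the list median was -0.04. Above both wild-type libraries were 3 of the 15 members, against 15.9% of all entries (16.7% of protein-coding genes), so most of the list did not share its direction with both controls.

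Genes of Treg identity showed the same dependence on the control. Of 17, 14 were higher and 2 lower in both KI libraries than in WT 6 weeks, with a median of 0.72 in each KI library. Against WT 21 days the median was 0.12. Of all entries 15.9% were above both wild-type libraries, and 9 of the 17 were. Il2ra, the high-affinity interleukin 2 receptor chain CD25, was among these at 112 and 176 in KI, 74.2 in WT 6 weeks and 93.4 in WT 21 days. Ctla4, the inhibitory receptor, was not, at 412 and 246 in KI, 148 in WT 6 weeks and 396 in WT 21 days. Foxp3 also lay at the level of WT 21 days.

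Socs2 and Cish, feedback inhibitors of cytokine signalling through STAT5, were above both wild-type libraries. Socs2 was at 55.9 and 45.9 in KI, 24.3 in WT 6 weeks and 20.3 in WT 21 days, a difference of 1.03 and 1.28 from the wild-type libraries. Cish was at 89.9 and 73.3 in KI, 42.3 in WT 6 weeks and 51.1 in WT 21 days, a difference of 0.92 and 0.66. Their relative Socs1 was at 46.7 and 33.6 in KI, 30.0 in WT 6 weeks and 21.1 in WT 21 days, and Socs3, with WT 21 days between the KI libraries, at 109.9 and 39.0, against 24.1 and 44.3. Of 13 genes from the interleukin 2 and 7 receptors to STAT5, 10 were higher and 2 lower in both KI libraries than in WT 6 weeks, with medians of 0.65 and 0.50 and a median of 0.37 against WT 21 days, and 7 were above and 2 below both wild-type libraries. Among all entries, 15.9% were above and 17.5% below both. The median of this list stayed above 0 against either control. Of 6 receptors of the interleukin 1 family, 5 were higher in both KI libraries, among them Il18r1, a chain of the interleukin 18 receptor, at 44.5 and 28.0 in KI, 20.6 in WT 6 weeks and 24.6 in WT 21 days.

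**Figure D3:**
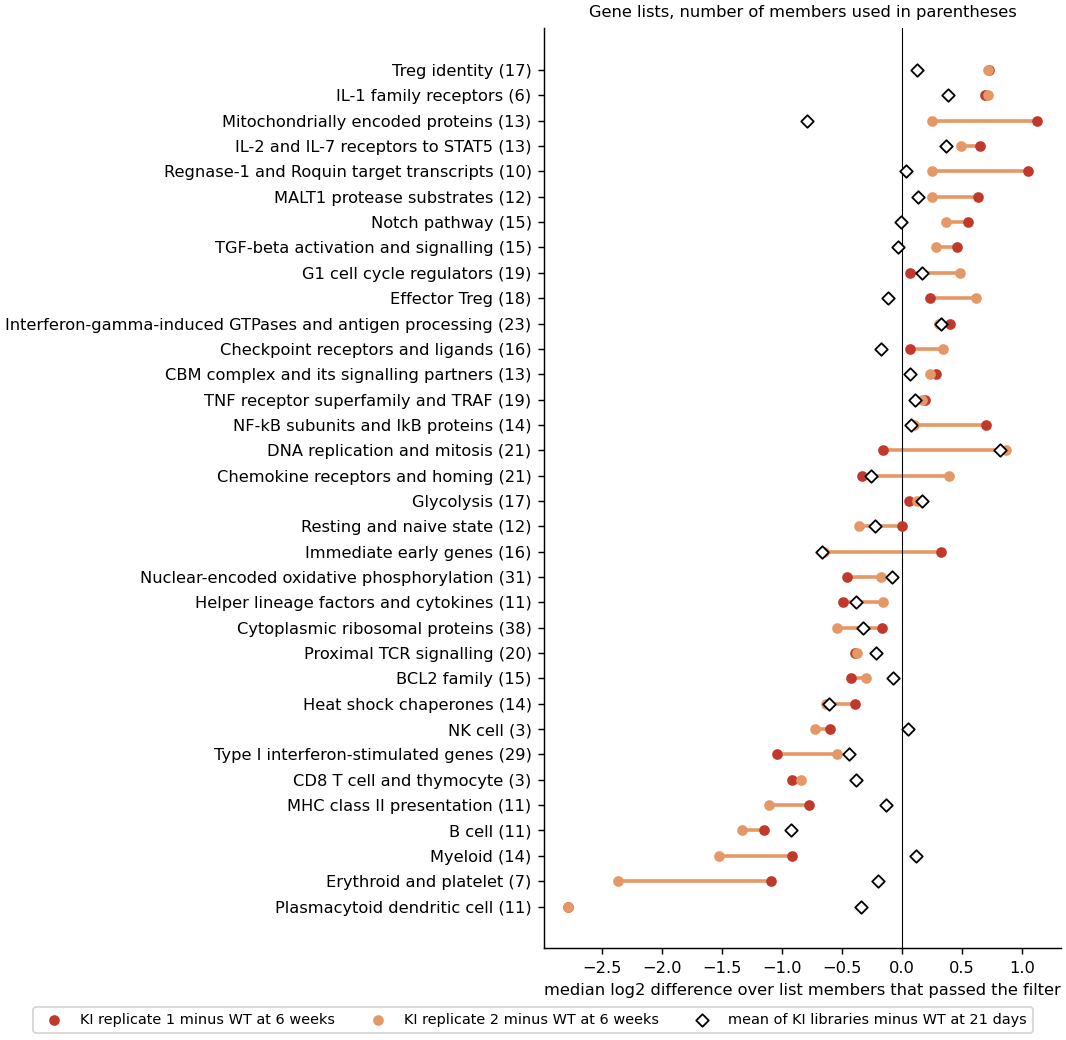
Median log2 difference, over the members that passed the level threshold, of KI replicate 1 and KI replicate 2 from WT 6 weeks (circles joined by a line) and of the KI mean from WT 21 days (diamonds), for 34 gene lists. Treg identity lies at 0.72 in both KI libraries but at 0.12 against WT 21 days, and immediate early and mitosis genes have the KI libraries on opposite sides of 0.

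Transcripts of MALT1 substrates were mostly higher in KI than in WT 6 weeks. Of 12, 8 were higher and 1 lower in both KI libraries, with medians of 0.63 and 0.25, and 5 were above both wild-type libraries. Of all entries 15.9% were above both, and the list median against WT 21 days was 0.14. Tab3, an adaptor of the kinase TAK1, was the 1 member past 2-fold, at 5.78 and 5.34 in KI and 1.93 in WT 6 weeks, with WT 21 days at 5.08. Zc3h12d, a relative of Regnase-1, was at 21.0 and 25.7 in KI, 16.9 in WT 6 weeks and 18.2 in WT 21 days. Cyld, a deubiquitinase that restrains NF-kB, was at 21.9 and 26.9 in KI, 16.5 in WT 6 weeks and 24.2 in WT 21 days. Such differences were small, and MALT1 acts on these proteins, whose levels were not measured here. The KI libraries disagreed on the best known of them. Tnfaip3, which encodes A20, was at 864 and 228 in KI, 218 in WT 6 weeks and 795 in WT 21 days, and Zc3h12a, which encodes Regnase-1, at 64.8 and 14.3 in KI, 20.8 in WT 6 weeks and 45.3 in WT 21 days.

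NF-kB subunits and IkB proteins followed that pattern. Of 14, 9 were higher and 1 lower in both KI libraries, 0 were past 2-fold in both, and the medians were 0.70 in KI replicate 1 and 0.10 in KI replicate 2. The median of their mean was 0.23, and -0.05 with FPKM as deposited. Against WT 21 days it was 0.08, and 4 of the 14 were above both wild-type libraries, against 15.9% of all entries. Rel, the subunit c-Rel that Treg need, was at 40.5 and 16.2 in KI, 7.79 in WT 6 weeks and 46.5 in WT 21 days. Nfkbia, the inhibitor IkB alpha and itself a target of NF-kB, was at 604 and 170 in KI, 320 in WT 6 weeks and 479 in WT 21 days. Nfkb2, the p100 subunit, was above both wild-type libraries at 41.9 and 38.8, against 23.0 in WT 6 weeks and 30.4 in WT 21 days. For Rel and Nfkbia, KI replicate 1 was thus nearer to WT 21 days and KI replicate 2 nearer to WT 6 weeks. Traf6, the ubiquitin ligase that the MALT1 scaffold recruits, was at 26.9 and 19.6 in KI, 11.4 in WT 6 weeks and 21.4 in WT 21 days.

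Among transcripts that Regnase-1 and the Roquins degrade, 6 of 10 were higher and 1 lower in both KI libraries than in WT 6 weeks. The list medians were 1.05 and 0.25, but 0.04 against WT 21 days. Above both wild-type libraries were 3 of the 10, against 15.9% of all entries. Irf4, a transcription factor of effector Treg, was at 31.1 and 39.5 in KI, 11.3 in WT 6 weeks and 21.4 in WT 21 days. Tnfrsf4, the receptor OX40, was at 218 and 184 in KI, 121 in WT 6 weeks and 147 in WT 21 days. Both were above each wild-type library, while Icos, another known target, was at 83.9 and 88.9 in KI, 82.4 in WT 6 weeks and 105 in WT 21 days. Of 18 genes of effector Treg, 11 were higher and 3 lower in both KI libraries. Besides Irf4, Prdm1, which encodes Blimp-1, was at 7.11 and 10.7 in KI, 3.53 in WT 6 weeks and 4.70 in WT 21 days, and Gzmb, granzyme B, at 18.2 and 15.5, against 9.93 and 7.13. Il10 was at 13.3 and 9.89 in KI, 8.11 in WT 6 weeks and 32.8 in WT 21 days, and Klrg1 and Pdcd1, the receptor PD-1, were lower in KI. The members of this list therefore did not share a direction.

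Components of proximal T cell receptor signalling tended to the lower side. Of 20, 13 were lower and 4 higher in both KI libraries than in WT 6 weeks, 11 were below both wild-type libraries (17.5% of all entries were), and 1, Cd28, was past 2-fold. The medians were -0.39 and -0.37, and -0.22 against WT 21 days. Lck, the kinase bound to CD4, was at 210 and 209 in KI, 400 in WT 6 weeks and 246 in WT 21 days. Cd3g was at 197 and 278 in KI, 395 in WT 6 weeks and 284 in WT 21 days. Cd28, the costimulatory receptor, lay the other way at 132 and 88.2 in KI and 39.6 in WT 6 weeks, with WT 21 days at 124. WT 6 weeks was the highest of these 4 libraries for Lck and Cd3g and the lowest for Cd28.

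Type I interferon-stimulated genes were lower in KI and most were highest in WT 6 weeks. Of 29 that passed the threshold, 24 were lower and 0 higher in both KI libraries, 7 were past 2-fold and 17 were below both wild-type libraries. Among all entries, 3.66% were at least 2-fold lower and 17.5% were below both. The list medians were -1.04 and -0.54, and -0.44 against WT 21 days. Of the 29, 21 had their highest value of the 5 libraries in WT 6 weeks, against 23.1% of all entries. These genes are switched on through interferon-stimulated response elements. Promoters are shown only for members that were lower in KI and held such letters. Each is the 250 bases before a RefSeq gene start on GRCm38.p6, 5′ to 3′ on the gene's strand, with GAAA, any 2 bases and GAAA again, or the reverse complement, in capitals: chr19:34640639-34640888 on the plus strand for Ifit1, chr19:34583279-34583528 on the plus strand for Ifit3 and chr8:71537473-71537722 on the minus strand for Bst2.
Ifit1: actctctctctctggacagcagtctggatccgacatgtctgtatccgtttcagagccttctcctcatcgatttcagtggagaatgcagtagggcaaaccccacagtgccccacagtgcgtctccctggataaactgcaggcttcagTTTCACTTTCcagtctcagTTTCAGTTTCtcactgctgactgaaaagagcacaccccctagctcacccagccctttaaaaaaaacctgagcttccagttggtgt
Ifit3: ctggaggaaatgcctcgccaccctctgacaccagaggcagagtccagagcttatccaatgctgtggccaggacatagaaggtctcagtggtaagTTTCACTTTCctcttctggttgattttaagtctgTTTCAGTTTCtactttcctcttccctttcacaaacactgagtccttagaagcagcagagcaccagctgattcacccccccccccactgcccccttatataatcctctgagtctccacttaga
Bst2: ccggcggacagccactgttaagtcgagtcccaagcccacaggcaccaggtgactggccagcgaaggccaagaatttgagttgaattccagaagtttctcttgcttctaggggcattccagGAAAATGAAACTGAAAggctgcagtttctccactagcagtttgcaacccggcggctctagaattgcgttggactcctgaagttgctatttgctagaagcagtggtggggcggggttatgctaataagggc
These letters were in a window of 10 of the 20 list genes found in the RefSeq table, and in 3.46% of its 27025 genes (2.98% of 32851 windows). The window of Irf7, which was also lower in KI, held none. Matches are letters only, and overlapping matches were counted separately, as in Bst2 with 2.

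Ifit1, an RNA-binding inhibitor of translation, was at 2.26 and 6.09 in KI, 12 in WT 6 weeks and 7.42 in WT 21 days. Ifit3, its partner, was at 1.89 and 3.99 in KI, 11.4 in WT 6 weeks and 4.90 in WT 21 days. Bst2, the membrane tether tetherin, was at 18.4 and 26.1 in KI, 65.8 in WT 6 weeks and 31.9 in WT 21 days. All were lowest in the KI libraries of these 4, with a smaller distance to WT 21 days than to WT 6 weeks. Irf7, the transcription factor that amplifies the response, was at 19.1 and 18.7 in KI, 49.3 in WT 6 weeks and 25.6 in WT 21 days. Plasmacytoid dendritic cells, whose markers were highest in WT 6 weeks, express Irf7 and Bst2 strongly, and their part in the difference was not tested. Within the KI pair, KI replicate 2 was higher for most of these genes, and Ifi27l2a was at 269 and 724 with 570.1 in WT 6 weeks and 601 in WT 21 days.

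Genes that respond mainly to interferon gamma did not follow the type I list. Of 23, 12 were higher and 6 lower in both KI libraries, 4 were at least 2-fold higher and 10 were above both wild-type libraries. The list medians were 0.40 and 0.31, and 0.33 against WT 21 days. Of all entries, 2.9% were at least 2-fold higher and 15.9% were above both wild-type libraries. Iigp1, an immunity-related GTPase, was at 32.5 and 40.4 in KI, 13.4 in WT 6 weeks and 11.7 in WT 21 days. Gbp3, a guanylate-binding protein, was at 32.4 and 37.0 in KI, 14.2 in WT 6 weeks and 20.7 in WT 21 days. Gbp4 was at 44.9 and 43.7 in KI, 27.7 in WT 6 weeks and 25.5 in WT 21 days. All lay above both wild-type libraries. Cd274, the ligand PD-L1, was at 45.1 and 29.1 in KI, 11.4 in WT 6 weeks and 26.3 in WT 21 days, and Cxcl10, a chemokine for CXCR3, at 44.5 and 20.9 against 6.99 and 21.4. The immunoproteasome genes Psmb8, Psmb9 and Psmb10 were instead lower in both KI libraries than in WT 6 weeks, Psmb10 at 36.4 and 43.2 against 64.6, with WT 21 days at 40.2.

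**Figure D4:**
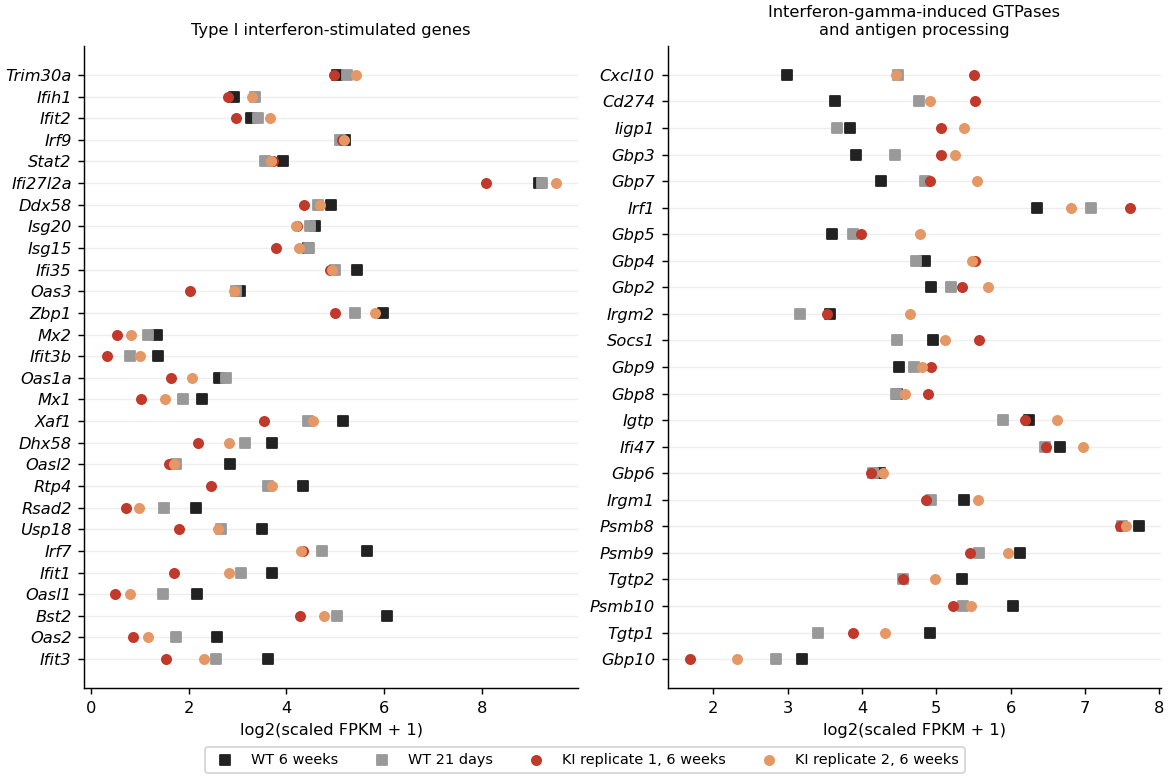
Levels, as log2(scaled FPKM + 1), of type I interferon-stimulated genes (left, 28 genes drawn) and of interferon gamma-induced GTPases and antigen processing genes (right, 23 genes), 1 point per library and 1 row per gene, ordered by the KI mean minus WT 6 weeks. On the left 24 genes have both KI circles below the black square, and on the right 12 have both above it.

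Markers of most other cell types examined were lower in KI than in WT 6 weeks. In bulk RNA, fewer cells of a type and less RNA per cell cannot be told apart. Of 11 markers of plasmacytoid dendritic cells, 10 were at least 2-fold lower in both KI libraries and 9 had their highest value in WT 6 weeks. Among all entries the shares were 3.66% and 23.1%. Siglech, the defining surface lectin of these dendritic cells, was listed at 0 and 0.149 in KI, 16.8 in WT 6 weeks and 0.294 in WT 21 days. Ly6d was at 0.927 and 0.284 in KI, 22.3 in WT 6 weeks and 1.71 in WT 21 days. Klk1 and Cox6a2 were listed at 0 in both KI libraries. WT 21 days was near the KI libraries for Siglech, Ly6d, Klk1 and Cox6a2, and level with WT 6 weeks for Ccr9. In KI, 9 of the 11 were below both wild-type libraries, against 17.5% of all entries. Runx2, a transcription factor also used in T cells, was the 1 member higher in KI.

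B cell markers were low in KI against both wild-type libraries. Of 11, 10 were lower in both KI libraries than in WT 6 weeks, 8 by at least 2-fold, and 9 were below WT 21 days as well. Among all entries, 3.66% were at least 2-fold lower than in WT 6 weeks and 17.5% were below both wild-type libraries. Ms4a1, which encodes CD20, was at 0.571 and 0.454 in KI, 2.49 in WT 6 weeks and 3 in WT 21 days. Cd79a, a subunit of the B cell receptor, was at 0.906 and 0.231 in KI, 4.68 in WT 6 weeks and 2.39 in WT 21 days. All 11 genes of MHC class II presentation were lower in both KI libraries, but 5 were below WT 21 days too, and H2-Aa was at 9.91 and 2.55 in KI, 78.0 in WT 6 weeks and 9.96 in WT 21 days. Myeloid markers were lower for 12 of 14, with Tyrobp, a signalling adaptor, at 4.39 and 0.116 in KI, 50.1 in WT 6 weeks and 1.24 in WT 21 days. Erythroid and platelet genes were lower for 7 of 7 and CD8 T cell and thymocyte genes for 3 of 3. NK cell markers differed from these lists: of 3, 2 were lower and 1 was higher, and their sum was 35.9 in WT 6 weeks and 35.2 and 37.7 in KI. Among the genes with the largest differences from WT 6 weeks alone, Tyrobp, Siglech, Ly6d, H2-Aa, Pld4, Rnase6 and Spib thus belong to lists of other cell types. On the same side was Ctse, the protease cathepsin E, at 7.82 and 6.11 in KI, 63.6 in WT 6 weeks, 5.63 in WT 21 days and 83.5 in the library labelled KO. The remaining ones, D13ERTD608E, Gm11273, PPP4R2 and Gm10197, were listed at or near 0 in the KI libraries and in WT 21 days. Their scaled confidence bounds in WT 6 weeks were, in that order, 6.74 to 14.1, 3.86 to 14.3, 1.49 to 16.2 and 0 to 18.8. PPP4R2 is the deposited symbol of a short entry, ENSMUSG00000097854, at chr10:79910856-79911140.

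**Figure D5:**
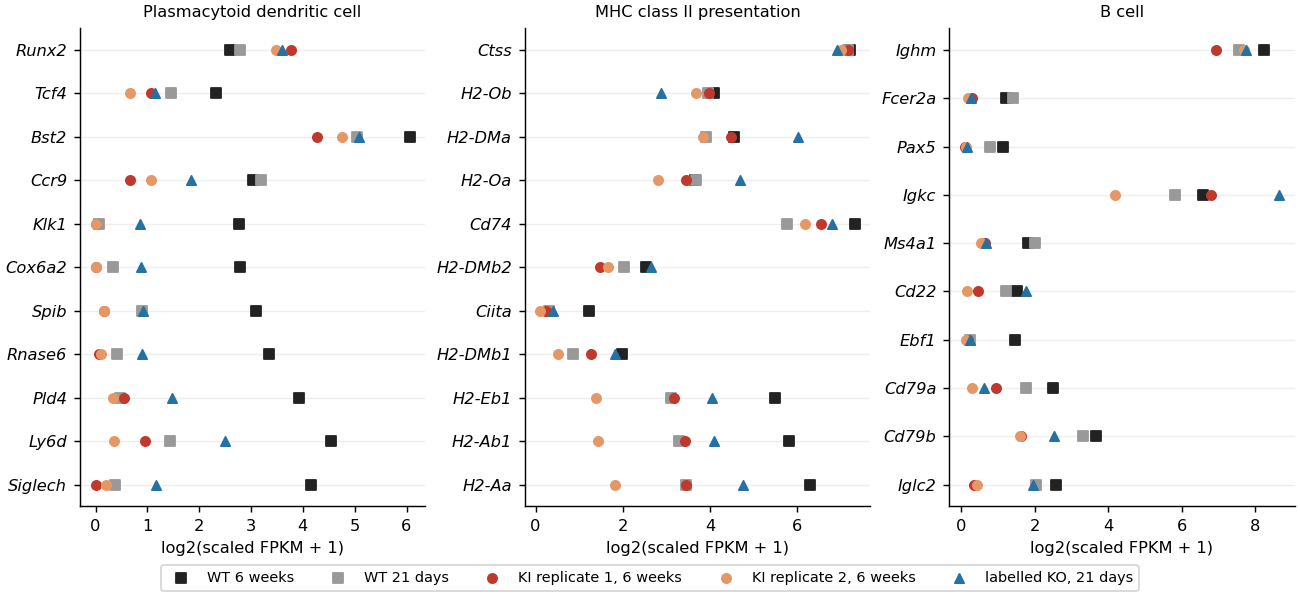
Levels, as log2(scaled FPKM + 1), of 11 markers of plasmacytoid dendritic cells, 11 genes of MHC class II presentation and 10 B cell markers, 1 point per library. The black squares (WT 6 weeks) are farthest right for most dendritic cell and MHC class II genes, with WT 21 days near the KI circles, while for several B cell genes both wild-type squares lie right of the circles.

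On the higher side, the largest differences from WT 6 weeks alone were often shared by WT 21 days. Bhlhe40, a transcription factor induced by receptor signalling, was at 446 and 102 in KI, 24.3 in WT 6 weeks and 177 in WT 21 days. Areg, the tissue repair factor amphiregulin, was at 40.4 and 9.04 in KI, 1.37 in WT 6 weeks and 14.2 in WT 21 days. Inpp4b, a phosphoinositide phosphatase, was at 248 and 271 in KI, 54.5 in WT 6 weeks and 179.8 in WT 21 days. Ece1, endothelin-converting enzyme, was at 31.9 and 47.1 in KI, 5.74 in WT 6 weeks and 39.7 in WT 21 days. The scaled confidence bounds of Ece1 were 0 to 74.1 and 0 to 101.7 in KI and 4.14 to 7.33 in WT 6 weeks, so they overlapped. In WT 21 days they were 2.38 to 77.1. WT 21 days thus fell between the KI libraries for Bhlhe40, Areg and Ece1 and below both for Inpp4b. Among short transcripts, mt-Atp8 was at 1272 and 1114 in KI, 56.8 in WT 6 weeks and 1179 in WT 21 days. Of 13 mitochondrially encoded genes, 11 were above WT 6 weeks in both KI libraries, and its median against WT 21 days was -0.79. Lsm5, Gm17352 and 1810049J17RIK were also on this side.

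Some gene groups separated the KI libraries from each other. Of 16 immediate early genes, 9 were on opposite sides of WT 6 weeks, with medians of 0.33 in KI replicate 1 and -0.65 in KI replicate 2. Fosb, a subunit of AP-1, was at 190.4 and 13.3 in KI, 87.9 in WT 6 weeks and 144 in WT 21 days. Maff, a small Maf factor, was at 48.4 and 4.08 in KI, 3.56 in WT 6 weeks and 29.5 in WT 21 days. KI replicate 1 was the high library in both. Replication and mitosis genes went the other way: of 21, 17 were on opposite sides, with medians of -0.16 and 0.87. Mki67, the proliferation marker, was at 15.9 in KI replicate 1, 49.9 in KI replicate 2, 16.1 in WT 6 weeks and 13.7 in WT 21 days. Plac8, Ramp3, Trnp1 and Ccl8 were the other largest differences within the pair. Plac8 was at 56.0 and 4.07 in KI, 30.7 in WT 6 weeks and 5.10 in WT 21 days, and Ramp3 at 35.8 and 1.38, against 2.3 and 10.9. Trnp1 was at 16.7 in KI replicate 1 and listed at 0 in the other KI library and both wild-type libraries, and Ccl8 was at 25.6 and 1.15, against 0.3 and 0.267. For all of these the KI group gave no single level.

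Ribosomal protein, respiratory chain and chaperone transcripts were somewhat lower in KI. Of 38 cytoplasmic ribosomal protein genes, 26 were lower and 2 higher in both KI libraries than in WT 6 weeks, and 21 were below both wild-type libraries. Rps20, not among these 21, was at 475 and 321 in KI, 1105 in WT 6 weeks and 465 in WT 21 days. Other members may share reads with processed pseudogenes. Of 31 nuclear-encoded respiratory chain genes, 23 were lower and 0 higher in both KI libraries than in WT 6 weeks. Against WT 21 days their median was only -0.09, and 11 were below both wild-type libraries. Of 14 heat shock chaperones 10 were lower and 2 higher than in WT 6 weeks. Hsp90aa1 was at 105 and 84.7 in KI, 164 in WT 6 weeks and 185 in WT 21 days. Hsph1 was at 14.1 and 13.8 in KI, 22.2 in WT 6 weeks and 52.6 in WT 21 days. Of the 14 chaperones, 8 were below both wild-type libraries, against 17.5% of all entries.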

How the data were processed

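RNA from sorted CD4+YFP+ Treg was sequenced in 5 libraries. The deposited values are FPKM per gene with confidence bounds, made by the authors. The submitters' processing notes list HISAT2 2.1.0, Cufflinks 2.2.1, CASAVA and the build GRCm38. Read counts were not used here, so no count model was run. Each library's FPKM was scaled by its median ratio to the geometric mean over 9874 genes, and log2(scaled FPKM + 1) was compared. Entries at 1 FPKM or more in any 6-week library were kept. Limma tested KI against WT 6 weeks over all 12158 entries, and on simulated data it recovered 6% of 2-fold and 62% of 4-fold changes. There 22 of 155 calls were false. The simulated wild-type library had the spread of the KI pair, so the lower depth and other content of WT 6 weeks were not simulated. Bounds cover counting and assignment error in 1 library only. The members and gene lists were chosen with earlier results of these data known.

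Named genes are protein-coding and reach 5 FPKM: the 12 highest and 12 lowest by the smaller KI difference from WT 6 weeks, up to 15 on each side past 2-fold against both wild-type libraries, the 6 that differ most within KI, Malt1, and list members as examples. A few list members are not reported here by name. Alternatives are in the closing section.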

Additional observations from a re-analysis of the deposited data

Results flagged for a closer look

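The library labelled KO, which enters none of the differences above, was at least 2-fold above both wild-type libraries, on the log2(scaled FPKM + 1) scale, for 10 of the 15 higher and 14 lower named genes past 2-fold against both. These are single libraries of 2 ages, and the excess was not tested. The share of all entries that met this measure was not counted, so the 10 have no background to be set against. The library labelled KO was also shallow, at 3.28 M implied fragments, against 2.99 M in WT 6 weeks and 8.37 M in WT 21 days. Against the higher wild-type value, Ifitm2 was at 230.5 against 8.69, Serpina3g at 88.2 against 41.3 and Il1r2 at 40.5 against 13.6. Iigp1 was at 39.5 against 13.4, Neb at 24.2 against 6.60 and Ccl1 at 21.3 against 2.1. Lilrb4 was at 10.3 against 2.55, Tm4sf5 at 6.68 against 1.92 and Scin at 3.41 against 0.472. Each of these 9 was also higher in both KI libraries than in both wild-type libraries, as the selection required. Cxcr6 was at 19.4 in it against 7.32, on the other side from the KI libraries, where it was at 2.16 and 1.30. By less than 2-fold, Cd40lg also lay on the other side, at 21.6 against 16.6. Cdk6, Hipk2, Fam160a1, Myo6 and Hapln1 lay on the same side as KI, also by less than 2-fold. Rin2, at 0.911, was below both wild-type libraries, unlike in KI. Most lower genes were below both wild-type libraries in it, as in KI. By at least 2-fold these were Klrg1 (4.98), Ccr9 (2.58), Cd86 (1.72), Dtx1 (22.7), Ccr6 (3.27) and Gm3636 (2.45). By less these were Cd79b, Capn3, Asb2, Rnase4 and Eif4ebp1, while Tox2 lay between the wild-type libraries. Outside these genes, Ctse was at 83.5 in it against 63.6.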

How the results depend on the processing

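No paired analysis was possible because WT 6 weeks is a single library. Main counts were 352 entries at least 2-fold higher and 445 lower in both KI libraries. They were 223 and 727 with FPKM as deposited, 701 and 792 with a pseudocount of 0.1, 211 and 256 over protein-coding genes, 38 and 81 at 4-fold, and 224 lower at 5 FPKM or more. With 1 KI library left out the higher count ranged from 748 to 990 and the lower from 752 to 755. With WT 21 days as the control they were 49 and 74, and against both wild-type libraries 35 and 41 (26 and 21 protein-coding, chosen after seeing the data). Limma called 0 entries, but 17 with a mean of at least 1 FPKM, 17 with 5 FPKM in any library and 3 with both wild-type libraries as the control, none of them annotated as protein-coding. Against WT 21 days the sign turned for Ctse (0.26), Tyrobp (0.13), Gm11273 (0.0001), Ece1 (-0.0335), Gm17352 (-0.13) and Lsm5 (-0.17), and for 3 genes named for their difference within KI, Maff (-0.94), Ramp3 (-0.35) and Plac8 (1.48). D13ERTD608E and Gm10197 came to 0. The cause was not tested. In all, 45 of 56 named genes kept their sign with WT 21 days and 56 of 56 with FPKM as deposited. List medians kept it in 26 of 34 with WT 21 days, with those of effector Treg (-0.12), homing (-0.26), Notch (-0.01), checkpoint (-0.18), TGF-beta (-0.04), mitochondrially encoded (-0.79), myeloid (0.12) and NK cell (0.05) genes on the other side of 0. With FPKM as deposited, 27 of 34 kept it, and those of CBM partners (-0.03), NF-kB (-0.05), homing (-0.15), mitosis (-0.05), TNF receptor (-0.04), checkpoint (-0.02) and glycolysis (-0.18) genes did not. On simulated data the test recovered 6% of 2-fold and 62% of 4-fold changes over all entries and 20% and 94% over protein-coding genes. It recovered 98% of 8-fold changes over all entries and 100% over protein-coding genes, and 100% of 16-fold changes over either. False calls were 22 of 155 and 11 of 168. These rates hold for a wild-type library that varies as the KI pair does, which WT 6 weeks may not. The part of depth in the results was not tested.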

Other observations

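Regulators of G1 did not share a direction. Of 19, 9 were higher and 3 lower in both KI libraries than in WT 6 weeks, and Cdk6 was the 1 member past 2-fold on the higher side. Ccnd1, cyclin D1, was at 0.238 and 0.201 in KI, 3.79 in WT 6 weeks and 0.404 in WT 21 days, so WT 6 weeks was the library that stood apart. Cdkn1b, the inhibitor p27, was at 88.3 and 73.1 in KI, 47.6 in WT 6 weeks and 71.8 in WT 21 days. In the BCL2 family 9 of 15 were lower and 5 higher in both KI libraries, with medians of -0.43 and -0.30. Unlike most members, the death-promoting Pmaip1 was above WT 6 weeks, at 41.1 and 20.2 against 9.76, with WT 21 days at 20.4.

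Checkpoint receptors and ligands were divided, with 9 of 16 higher and 7 lower in both KI libraries than in WT 6 weeks. Lag3, an inhibitory receptor for MHC class II, was at 25.7 and 23.4 in KI, 13.1 in WT 6 weeks and 13.8 in WT 21 days. Cd96 was at 32.3 and 41.6 in KI, 59.1 in WT 6 weeks and 53.4 in WT 21 days. Of 17 glycolysis genes 9 were higher and 5 lower, and of 15 Notch pathway genes 11 were higher and 2 lower, while Dtx1 was past 2-fold on the lower side. In the TNF receptor and TRAF list 8 of 19 were higher and 6 lower, in the resting and naive list 3 of 12 were higher and 5 lower, and in the helper lineage list 2 of 11 were higher and 6 lower. The helper list had medians of -0.50 and -0.16, with 1 member above and 4 below both wild-type libraries. Among all entries, 15.9% were above and 17.5% below both. Against the direction of most of that list, Il4 was at 2.67 and 2.2 in KI, 0.712 in WT 6 weeks and 0.675 in WT 21 days.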
